A study of Mus musculus with 15 samples.

Results

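Islet cells labelled Pdx1-deficient were compared with islet alpha cells on 10 of the 15 Affymetrix Mouse Gene 1.0 ST arrays of the study: the 5 arrays titled Pdx1-deficient cell and the 5 titled Islet alpha cell. All 19938 genes measured by a transcript cluster with a single gene symbol entered the comparison, and the 5 arrays titled Islet beta cell give reference values. The alpha arrays carry the genotype label RIP-CreER; Pdx1fl/+, RosaYFP, so the insulin-promoter driver of a tamoxifen-dependent Cre, a single floxed Pdx1 allele and a YFP reporter. The beta arrays carry glucagon-Cre; RosaYFP, although the insulin promoter is normally used by beta cells and the glucagon promoter by alpha cells. Control cells were sorted by YFP from mice 2 months old. The third group is labelled Pdx1-deficient (PKO) and reprogrammed cells, and was taken 5 days after tamoxifen. All 3 groups have a mixed B6 and BALB/C background. The labels do not give the exon deleted, the driver line, mouse age or sorting marker of the Pdx1-deficient cells, or whether controls received tamoxifen. Nothing says that replicates are separate animals, and p-values therefore describe the spread among samples that could be technical repeats.

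Pdx1 is a homeodomain transcription factor that beta cells keep throughout life and that adult alpha cells have largely lost. Alpha cells make glucagon from the product of Gcg and express regulators such as the Irx factors. Beta cells make insulin, cut proinsulin with the convertase encoded by Pcsk1, take up glucose through the transporter encoded by Slc2a2 and secrete urocortin 3. The question here is what still separated the cells labelled Pdx1-deficient from control alpha cells.

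Values are log2 signals (the base was read from the range of the values, so folds hold only if the base is 2), and a difference is the Pdx1-deficient mean minus the alpha mean. Pdx1 itself read 8.15, 7.98, 8.21, 7.70 and 7.27 in alpha replicates 1 to 5 and 9.12, 7.83, 7.68, 6.53 and 7.59 in Pdx1-deficient replicates 1 to 5. The groups overlapped, and the array labelled Pdx1-deficient replicate 1 lay within the beta range of 8.85 to 9.33, against its label. Pdx1 differed between the groups by -0.11 (95% interval -0.83 to 0.61, limma adjusted p = 0.994; exact two-sided permutation p = 0.81 over 252 splits). With the array labelled Pdx1-deficient replicate 1 and that labelled alpha replicate 2 left out, the difference was -0.42 (95% interval -1.01 to 0.16; exact two-sided permutation p = 0.314 over 70 splits). Where the probes lie relative to the deleted part of the gene is not given in the sources used here.

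The array labelled alpha replicate 2 also stood apart. Its mean correlation over all genes was 0.963 with the other alpha arrays and 0.974 with both the Pdx1-deficient and the beta arrays, while the other 4 alpha arrays had 0.961 to 0.970 with alpha, 0.954 to 0.967 with Pdx1-deficient and 0.947 to 0.962 with beta arrays. Pdx1-deficient replicates 1 to 5 had 0.970, 0.974, 0.973, 0.961 and 0.964 with their own group. With beta arrays they had 0.976, 0.972, 0.976, 0.946 and 0.949, and with alpha arrays 0.970, 0.971, 0.971, 0.954 and 0.956. Replicates 4 and 5 therefore correlated more with alpha than with beta arrays, and replicates 1 to 3 did the reverse. Pdx1-deficient replicates 1 and 3 thus also correlated more with beta arrays than with their own group. Alpha replicate 5 had acinar signal, with a mean of 11.11 over 20 acinar genes where the other alpha arrays had 5.60 to 6.71 and the Pdx1-deficient arrays 5.57 to 6.35. Results are therefore given over 5 against 5 arrays and over 4 against 4, without Pdx1-deficient replicate 1 and alpha replicate 2. These arrays were left out because of values measured in these data. The adjusted p-values over 4 against 4 take no account of that choice. For some genes below, only the result over 4 against 4 arrays is printed. None of those genes passed the limma adjusted threshold over 5 against 5 arrays, where no gene did.

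Over 5 against 5 arrays no gene passed a limma adjusted p of 0.05 (0 of 19938, 0%), and 1197 genes (6%) had an unadjusted p under 0.05. Of these, 618 (3.1%) were higher and 579 (2.9%) lower in Pdx1-deficient arrays, and 127 genes (0.637%) showed no overlap between alpha and Pdx1-deficient arrays (71 higher, 0.356%, and 56 lower, 0.281%). With 4 against 4 arrays 177 genes (0.888%) passed, 89 higher (0.446%) and 88 lower (0.441%), 1644 (8.25%) had an unadjusted p under 0.05 (905 higher, 4.54%, and 739 lower, 3.71%), and 898 (4.5%) did not overlap. For scale, the fit of all 15 arrays called 217 genes (1.09%) between Pdx1-deficient and beta arrays and 806 (4.04%) between alpha and beta arrays, comparisons that share arrays with this one. The lower genes had the bigger differences: 64 of 88 fell at least 2-fold with a median of -1.35, against 47 of 89 that rose at least 2-fold with a median of 1.05. When a further array was left out, 41 of the 89 and 41 of the 88 passed in all 13 such fits, while Arg1 and Ccl28 passed in 2, Dstyk and Fbxo4 in 4 and Adh1 in 5. Leaving out alpha replicate 2 alone gave 145 genes, leaving out Pdx1-deficient replicate 1 alone gave 1 (Cdo1), and each of the other 13 arrays left out alone gave 0. That count of 177 fell to 106 when alpha replicate 5, the array with acinar signal, was left out too, and to 107 with the acinar mean as a covariate.

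**Figure D1:**
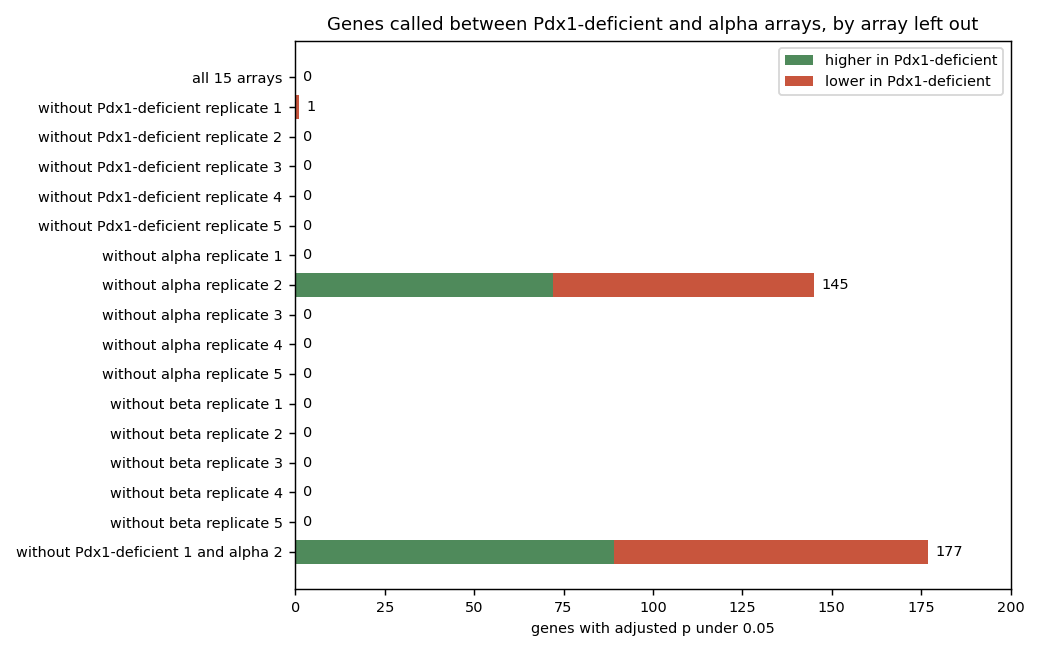
Number of genes with a limma adjusted p under 0.05 between Pdx1-deficient and alpha arrays (horizontal axis), for all 15 arrays in the fit and for each array left out (rows); green counts genes higher and red counts genes lower in Pdx1-deficient arrays. The count is 0 or 1 except without alpha replicate 2, with 145, and without alpha replicate 2 and Pdx1-deficient replicate 1 together, with 177.

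Among the 88 lower genes, alpha replicate 2 lay nearer the Pdx1-deficient mean than the alpha mean in 76 and inside the Pdx1-deficient range in 47. Among the 89 higher genes it lay nearer the Pdx1-deficient mean in 82. Pdx1-deficient replicate 1 lay nearer its own group in 57 of the 88 and 65 of the 89.

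The glucagon gene differed little between the groups, and it also differed little between the alpha and beta arrays. Gcg, the glucagon gene, read 12.74, 12.49, 12.87, 12.87 and 12.74 in alpha replicates 1 to 5 and 12.79, 12.35, 12.65, 12.38 and 12.45 in Pdx1-deficient replicates 1 to 5. It was among the strongest signals in every group, since the beta arrays read 12.15 to 12.51. The difference was -0.22 (95% interval -0.46 to 0.02, limma adjusted p = 0.866; exact two-sided permutation p = 0.0873). With 4 against 4 arrays it was -0.35 (limma adjusted p = 0.226), and the groups did not overlap. The exact two-sided permutation p of 0.0286 is the smallest that 70 splits allow. The arrays left out held the highest Pdx1-deficient value, 12.79, and the lowest alpha value, 12.49. The lack of overlap and this p therefore depend on their removal. The alpha mean of Gcg lay only 0.39 above the beta mean (limma adjusted p = 0.0638), or 0.45 without the 2 arrays (limma adjusted p = 0.0176). The Pdx1-deficient mean lay 0.17 above the beta mean, or 0.10 without the 2 arrays. A small gap to alpha therefore does not place the Pdx1-deficient arrays at the alpha level. Ins2, an insulin gene that alpha cells should lack, read 11.86 to 12.09 in alpha and 11.90 to 12.12 in Pdx1-deficient arrays. Beta arrays read 11.77 to 11.98, and the alpha mean lay 0.10 above the beta mean (limma adjusted p = 0.449). Ins2 thus did not separate the control groups on this array, and its signal was high in the arrays labelled alpha. Whether this reflects other cells in the sort was not tested, and in bulk samples fewer cells of a type and less RNA per cell cannot be told apart.

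The alpha-cell identity list holds 16 genes, of which 13 were analysed here. Like the other lists below, it was chosen with earlier results of these data known. Its counts beside the shares of all genes are therefore descriptions without a test. All 13 were lower in Pdx1-deficient arrays in sign, with a median difference of -0.40 against 0.02 over all genes, 9 of 13 had an unadjusted p under 0.05 (2.9% of all genes did in this direction), and 0 of 13 passed the limma adjusted threshold or were free of overlap (0.281% of all genes). The median over 4 against 4 arrays was -0.56 against 0.02, Etv1, Ndst4 and Dpp10 fell with a limma adjusted p under 0.05 (3 of 13, against 0.441%), and 10 of 13 did not overlap (2.06%). The mean of the list was 8.79, 8.04, 9.17, 9.05 and 8.97 in alpha replicates 1 to 5 and 8.15, 7.95, 8.16, 7.98 and 8.01 in Pdx1-deficient replicates 1 to 5. Pdx1-deficient arrays lay between the beta arrays, at 7.40 to 7.63, and 4 of the alpha arrays, and alpha replicate 2 lay among them.

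**Figure D2:**
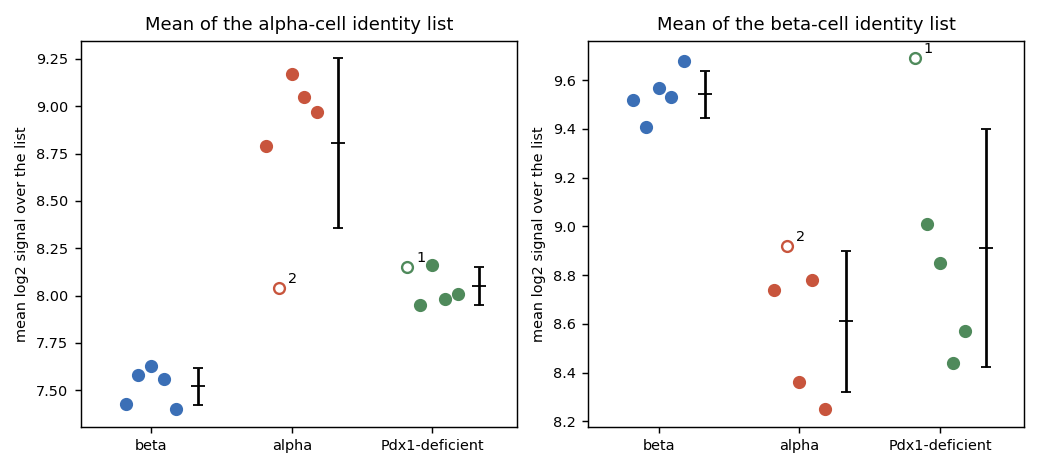
Mean log2 signal over the measured genes of the alpha-cell identity list (left, 13 genes) and the beta-cell identity list (right, 19 genes) in each beta, alpha and Pdx1-deficient array; points are arrays, open points are alpha replicate 2 and Pdx1-deficient replicate 1, and black bars are the group mean ± SD (n = 5). The alpha-list means of Pdx1-deficient arrays, 7.95 to 8.16, lie above those of beta arrays and below those of 4 alpha arrays; the beta-list mean of Pdx1-deficient replicate 1, 9.69, lies with the beta arrays.

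Etv1, an ETS-family transcription factor, read 10.45, 9.21, 10.86, 10.49 and 10.68 in alpha arrays and 9.23, 9.07, 9.10, 8.31 and 8.15 in Pdx1-deficient arrays. The groups touched only through alpha replicate 2, and the Pdx1-deficient values lay close to the beta range of 8.10 to 9.11. The difference was -1.57 (SE 0.32, limma adjusted p = 0.264), and over 4 against 4 arrays Etv1 fell 3.9-fold (-1.96, SE 0.27, limma adjusted p = 0.00293). Ndst4, which encodes an enzyme that adds sulfate to heparan sulfate chains, read 8.27, 6.50, 8.49, 8.55 and 8.79 in alpha arrays and 6.77, 5.73, 6.52, 7.23 and 6.56 in Pdx1-deficient arrays. Its Pdx1-deficient values were midway, above all beta arrays (4.24 to 4.84) and below 4 of the 5 alpha arrays. Ndst4 differed by -1.56 (SE 0.36, limma adjusted p = 0.319) and over 4 against 4 arrays fell 4.04-fold (-2.01, SE 0.25, limma adjusted p = 0.00133). Of 17 measured heparan sulfate sulfotransferase and polymerase genes Ndst4 was the only member past the threshold over 4 against 4 arrays (0.441% of all genes fell), and the list had a median of 0.05 over 5 against 5 arrays. Dpp10, a subunit of potassium channels, read 8.94, 5.82, 8.65, 9.08 and 8.62 in alpha arrays and 7.36, 6.10, 6.14, 6.14 and 6.06 in Pdx1-deficient arrays. Pdx1-deficient replicates 2 to 5 and alpha replicate 2 lay within the beta range of 5.22 to 6.57, while Pdx1-deficient replicate 1 was the only one between the groups. Dpp10 differed by -1.86 (SE 0.51, limma adjusted p = 0.382) and over 4 against 4 arrays fell 6.56-fold (-2.71, SE 0.22, limma adjusted p = 3.39e-05).

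The other 10 list members did not pass in either set of arrays. Smarca1, a chromatin remodelling ATPase, read 8.63 to 10.14 in alpha and 8.13 to 8.80 in Pdx1-deficient arrays, a difference of -1.17 (-1.48 over 4 against 4 arrays, limma adjusted p = 0.0807). Sstr2, the somatostatin receptor through which delta cells restrain glucagon release, read 5.18 to 8.46 and 5.27 to 5.91 (-1.13, and -1.60 over 4 against 4 arrays with a limma adjusted p of 0.073). Irx2 and Irx1, homeodomain regulators of alpha cells, differed by -0.40 and -0.32, and over 4 against 4 arrays by -0.56 and -0.47 (limma adjusted p = 0.0564 and 0.076). These genes came near the threshold, and Irx1, Irx2, Smarca1 and Sstr2 each passed in 1 of the 13 fits that left out a further array.

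Apart from Slc7a2, the remaining list members differed by less. Gria3, a glutamate receptor subunit, read 9.05, 9.56, 9.98, 10.08 and 9.90 in alpha arrays and 8.60, 9.44, 10.33, 9.13 and 9.53 in Pdx1-deficient arrays, all above the beta range of 7.51 to 8.34. Its difference was -0.31 (95% interval -0.90 to 0.28), and -0.15 over 4 against 4 arrays (95% interval -0.76 to 0.46). Slc7a2, a carrier of cationic amino acids, read 9.43 to 10.71 in alpha and 9.33 to 9.74 in Pdx1-deficient arrays. Beta arrays read 8.46 to 9.30, so it lay between the control groups. Slc7a2 differed by -0.64 (limma adjusted p = 0.608), and by -0.88 over 4 against 4 arrays (limma adjusted p = 0.0614). This was a bigger gap than those of Irx1 and Irx2, and Slc7a2 passed in 2 of the 13 fits that left out a further array. Slc38a5, a glutamine carrier, differed by -0.03 (95% interval -0.77 to 0.71), with a sign that turned to 0.37 over 4 against 4 arrays. Ttr, the thyroid hormone carrier transthyretin, read 12.23 to 12.47 in alpha and 11.93 to 12.30 in Pdx1-deficient arrays, where beta arrays had 12.01 to 12.31, and differed by -0.28. Pou3f4, a POU-domain factor of developing alpha cells, differed by -0.27, and alpha replicate 1 at 6.13 held most of it, since the other alpha arrays read 4.76 to 5.17 and the Pdx1-deficient arrays 4.89 to 5.14.

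Genes outside the list had bigger gaps. Higd1a, which encodes a mitochondrial protein induced by low oxygen, read 8.99, 5.33, 9.00, 9.75 and 9.26 in alpha arrays and 7.15, 5.11, 5.67, 4.98 and 5.33 in Pdx1-deficient arrays. Pdx1-deficient replicates 2 to 5 lay within the beta range of 4.67 to 5.70, and alpha replicate 2 lay there too. The difference was -2.82 (SE 0.67, limma adjusted p = 0.319), and over 4 against 4 arrays Higd1a fell 15.8-fold (-3.98, SE 0.23, limma adjusted p = 2.41e-06). It had the biggest difference of the 177 genes.

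The 250 bases upstream of the annotated starts of Etv1, Higd1a and Pcsk1 are shown because these genes carry the gaps in both directions and because TAAT is the core that homeodomain factors such as Pdx1 recognise. They are RefSeq sequences on GRCm38.p6, written 5′ to 3′ on the gene's strand, at chr12:38779832-38780081 (plus strand), chr9:121857797-121858046 (minus strand) and chr13:75089607-75089856 (plus strand). Capitals mark TAAT on either strand (TAAT or ATTA).
Etv1: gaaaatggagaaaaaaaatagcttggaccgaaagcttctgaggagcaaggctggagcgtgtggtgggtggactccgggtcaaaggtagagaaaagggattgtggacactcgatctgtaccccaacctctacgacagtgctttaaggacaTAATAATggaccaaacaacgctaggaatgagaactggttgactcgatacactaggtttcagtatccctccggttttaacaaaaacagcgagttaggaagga
Higd1a: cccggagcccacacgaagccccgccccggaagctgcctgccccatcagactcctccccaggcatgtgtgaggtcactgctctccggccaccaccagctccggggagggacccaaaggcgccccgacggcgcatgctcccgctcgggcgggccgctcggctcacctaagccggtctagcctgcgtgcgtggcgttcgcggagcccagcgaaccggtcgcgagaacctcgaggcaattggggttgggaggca
Pcsk1: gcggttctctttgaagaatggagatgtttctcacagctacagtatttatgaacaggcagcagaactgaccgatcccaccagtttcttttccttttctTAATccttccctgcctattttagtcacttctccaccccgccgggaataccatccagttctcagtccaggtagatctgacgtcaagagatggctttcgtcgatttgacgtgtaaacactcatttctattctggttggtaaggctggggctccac
The Etv1 window shown holds 2 matches, the Higd1a window 0 and the Pcsk1 window 1. RefSeq gives Etv1 a second start, whose window at chr12:38783461-38783710 (plus strand, not shown) holds 4. TAAT occurs in 54.9% of all 32851 RefSeq windows, so a match describes the letters and is no evidence of binding.

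The imprinted neighbours Peg10 and Sgce, which are expressed from the paternal allele, followed the pattern of Higd1a. Peg10, derived from a retrotransposon, read 8.85, 6.82, 10.33, 10.60 and 10.12 in alpha arrays and 8.81, 5.66, 6.80, 6.59 and 5.84 in Pdx1-deficient arrays. Pdx1-deficient replicate 1 overlapped the alpha arrays, and alpha replicate 2 lay just above the beta range of 6.24 to 6.79. Peg10 fell 13.5-fold over 4 against 4 arrays (-3.75, SE 0.34, limma adjusted p = 0.000112), and over 5 against 5 the difference was -2.60 (limma adjusted p = 0.338). Sgce, which encodes epsilon-sarcoglycan, differed by -1.80 (limma adjusted p = 0.319) and over 4 against 4 arrays fell 5.68-fold (limma adjusted p = 4.92e-06). Grb10, an imprinted adaptor that damps insulin receptor signalling, fell 2.11-fold over 4 against 4 arrays (limma adjusted p = 0.00484). The 19 measured imprinted genes had a median of 0.04 over 5 against 5 arrays, and Peg10, Sgce and Grb10 were the 3 called over 4 against 4 (0.441% of all genes were lower by that rule).

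Galnt13, an enzyme that starts mucin-type glycosylation, read 7.20, 4.80, 7.46, 8.24 and 8.26 in alpha arrays and 5.67, 4.55, 4.84, 4.46 and 4.58 in Pdx1-deficient arrays. Without alpha replicate 2 the alpha arrays lay well above, and Pdx1-deficient replicates 2 to 5 lay close to the beta range of 4.30 to 4.56. Over 4 against 4 arrays Galnt13 fell 9.11-fold, Mctp2, a membrane protein with C2 domains, fell 8.22-fold and Ptprk, a receptor tyrosine phosphatase of cell contacts, fell 7.23-fold (limma adjusted p = 4.09e-06, 1.1e-05 and 4.02e-06). Over 5 against 5 arrays the same genes differed by -2.37, -2.20 and -1.92 (limma adjusted p = 0.264, 0.319 and 0.39). Of the 24 measured adhesion and guidance receptors, 3 fell over 4 against 4 arrays, Ptprk, Cadm1 (2.95-fold) and Nrcam (1.6-fold), and Robo1 rose (2.45-fold), where 0.441% of all genes fell and 0.446% rose. The median of that list was 0.00 over 5 against 5 arrays.

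Metabolic genes were among those below the alpha level. Pdk4, the kinase that shuts off pyruvate dehydrogenase in fasted tissues, read 9.69, 7.53, 10.31, 10.10 and 9.95 in alpha arrays and 8.88, 7.25, 7.59, 7.00 and 7.60 in Pdx1-deficient arrays. The beta arrays spanned 5.08 to 7.02, so the Pdx1-deficient arrays lay above nearly all of them but below 4 of the 5 alpha arrays. Pdk4 fell 6.29-fold over 4 against 4 arrays (-2.65, SE 0.36, limma adjusted p = 0.00289) and differed by -1.85 over 5 against 5 (limma adjusted p = 0.394). Oat, the ornithine aminotransferase that is kept low in beta cells, read 6.84, 5.50, 7.55, 8.02 and 7.57 in alpha arrays and 6.46, 5.30, 5.13, 5.60 and 5.24 in Pdx1-deficient arrays. It fell 4.53-fold over 4 against 4 arrays (limma adjusted p = 0.000189), and it was the only called gene of the 17 measured genes disallowed in beta cells (0.441% of all genes fell), whose median was -0.02 over 5 against 5 arrays. Gpx3, a secreted glutathione peroxidase, read 10.99, 9.48, 10.96, 11.08 and 10.98 in alpha arrays and 10.41, 7.93, 8.96, 7.76 and 8.31 in Pdx1-deficient arrays, and fell 6.8-fold over 4 against 4 (limma adjusted p = 0.000705). Nudt11, which cleaves inositol pyrophosphates, fell 7.23-fold (limma adjusted p = 0.000724), and Rcn3, a calcium-binding protein of the endoplasmic reticulum, fell 5.76-fold (limma adjusted p = 0.000189).

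Cdo1, cysteine dioxygenase, which turns cysteine towards taurine, had the lowest adjusted p over 5 against 5 arrays. It read 8.51, 7.85, 9.11, 8.42 and 8.40 in alpha arrays and 7.40, 6.77, 6.84, 6.99 and 6.06 in Pdx1-deficient arrays. No array overlapped, alpha replicate 2 was the lowest alpha value, and the beta arrays, at 7.30 to 7.70, lay below all alpha arrays and above Pdx1-deficient replicates 2 to 5. The difference of -1.64 (SE 0.23, 95% interval -2.14 to -1.15) did not pass (limma adjusted p = 0.0671), and over 4 against 4 arrays Cdo1 fell 3.85-fold (-1.94, limma adjusted p = 0.000355). Fam3c, a secreted cytokine-like protein, lay below both control groups: it read 8.88 to 9.52 in alpha, 8.74 to 9.30 in beta and 6.99 to 8.56 in Pdx1-deficient arrays (-1.16, limma adjusted p = 0.264; -1.38 and 0.0237 over 4 against 4). Arg1, arginase 1, which catalyses the last step of the urea cycle, differed by -1.02 (limma adjusted p = 0.319) and over 4 against 4 arrays fell 2.35-fold (limma adjusted p = 0.0464).

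Predicted genes left aside, in 12 lower genes the full sets of arrays were free of overlap and the difference was biggest. Beside Cdo1, Fam3c and Arg1 these were A1cf, Apod, Lonrf2, Utp15, Rnf32, Spred2, Olfm3, Rhou and Dstyk, with differences of -0.56 to -0.90. A1cf, a partner of the enzyme that edits apolipoprotein B RNA, was the next (-0.90), and it read 8.84 to 9.96 in alpha and 7.90 to 8.83 in Pdx1-deficient arrays. Alpha replicate 2, at 9.07, was here with the other alpha arrays. Apod, a lipid-binding apolipoprotein, read 7.44 to 8.13 and 6.39 to 7.33, again with alpha replicate 2 (7.51) in its own group. Of these 12 genes, Utp15 and Dstyk passed over 4 against 4 arrays beside the first 3 (limma adjusted p = 0.0149 and 0.031).

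Immediate early genes, which respond within minutes to stress such as tissue dissociation, were lower in sign in 15 of 16 measured members, with a median of -0.18 against 0.02 over all genes. Atf3, with 4 against 4 arrays, fell 3.48-fold, Klf4 2.42-fold and Ier2 1.97-fold (limma adjusted p = 0.00722, 0.00757 and 0.0302), 3 of 16 against 0.441% of all genes. Atf3 read 10.86, 8.15, 10.98, 11.17 and 10.36 in alpha arrays and 9.37, 9.78, 8.83, 8.35 and 9.22 in Pdx1-deficient arrays. The mean of this list was 9.15, 8.31, 9.28, 9.28 and 8.88 in alpha replicates 1 to 5 and 8.60 to 8.84 in Pdx1-deficient arrays, so alpha replicate 2 was the lowest array of the 10. The part of sorting stress in the other differences was not tested.

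Several genes that read higher than in alpha cells lay at or nearer the beta level. Insrr, a receptor related to the insulin receptor that senses alkaline pH, read 7.47, 8.57, 7.47, 7.71 and 6.77 in alpha arrays and 8.68, 8.66, 8.87, 8.79 and 8.85 in Pdx1-deficient arrays. No array overlapped, the Pdx1-deficient values lay within the beta range of 8.64 to 9.25, and alpha replicate 2 fell just short of it. Insrr differed by 1.17 (SE 0.23, limma adjusted p = 0.264) and rose 2.71-fold over 4 against 4 arrays (limma adjusted p = 0.00171). Klf5, a Krüppel-like transcription factor, read 7.41, 7.98, 6.84, 7.05 and 6.92 in alpha arrays and 8.13, 8.49, 8.13, 8.07 and 8.31 in Pdx1-deficient arrays. The Pdx1-deficient and beta ranges (8.06 to 8.40 in beta) nearly coincided, and alpha replicate 2 was again the highest alpha array. Klf5 differed by 0.99 (SE 0.18, limma adjusted p = 0.264) and rose 2.29-fold over 4 against 4 arrays (limma adjusted p = 0.000872). Entpd3, an ectonucleotidase on the beta-cell surface, read 7.20 to 8.90 in alpha, 8.96 to 9.26 in Pdx1-deficient and 9.22 to 9.70 in beta arrays, so all but replicate 4 of the Pdx1-deficient arrays lay below the beta range. It rose 2.28-fold over 4 against 4 arrays (limma adjusted p = 0.016).

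Predicted genes again left aside, the 12 biggest non-overlapping rises over 5 against 5 arrays held 9 further genes (Msmo1, Pon2, Rhbdl2, Dsp, Pi4k2a, Iah1, Rragd, Fbxo4 and Mrpl32). Their differences ran from 0.70 to 1.16, and none passed there. Dsp, desmoplakin, the plaque protein of desmosomes, read 6.99 to 8.03 in alpha and 8.11 to 8.56 in Pdx1-deficient arrays (0.78, and 1.79-fold over 4 against 4 with a limma adjusted p of 0.00792). Rragd, a GTPase that passes amino acid signals to the growth kinase mTORC1, read 6.53 to 7.26 and 7.46 to 8.12 (0.74, and 1.82-fold with a limma adjusted p of 0.0302). Pi4k2a, a kinase that makes a membrane phosphoinositide, read 5.45 to 6.07 and 6.19 to 6.99 (0.76, and 1.82-fold with a limma adjusted p of 0.016). Here alpha replicate 2, at 5.83, lay among the other alpha arrays.

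**Figure D3:**
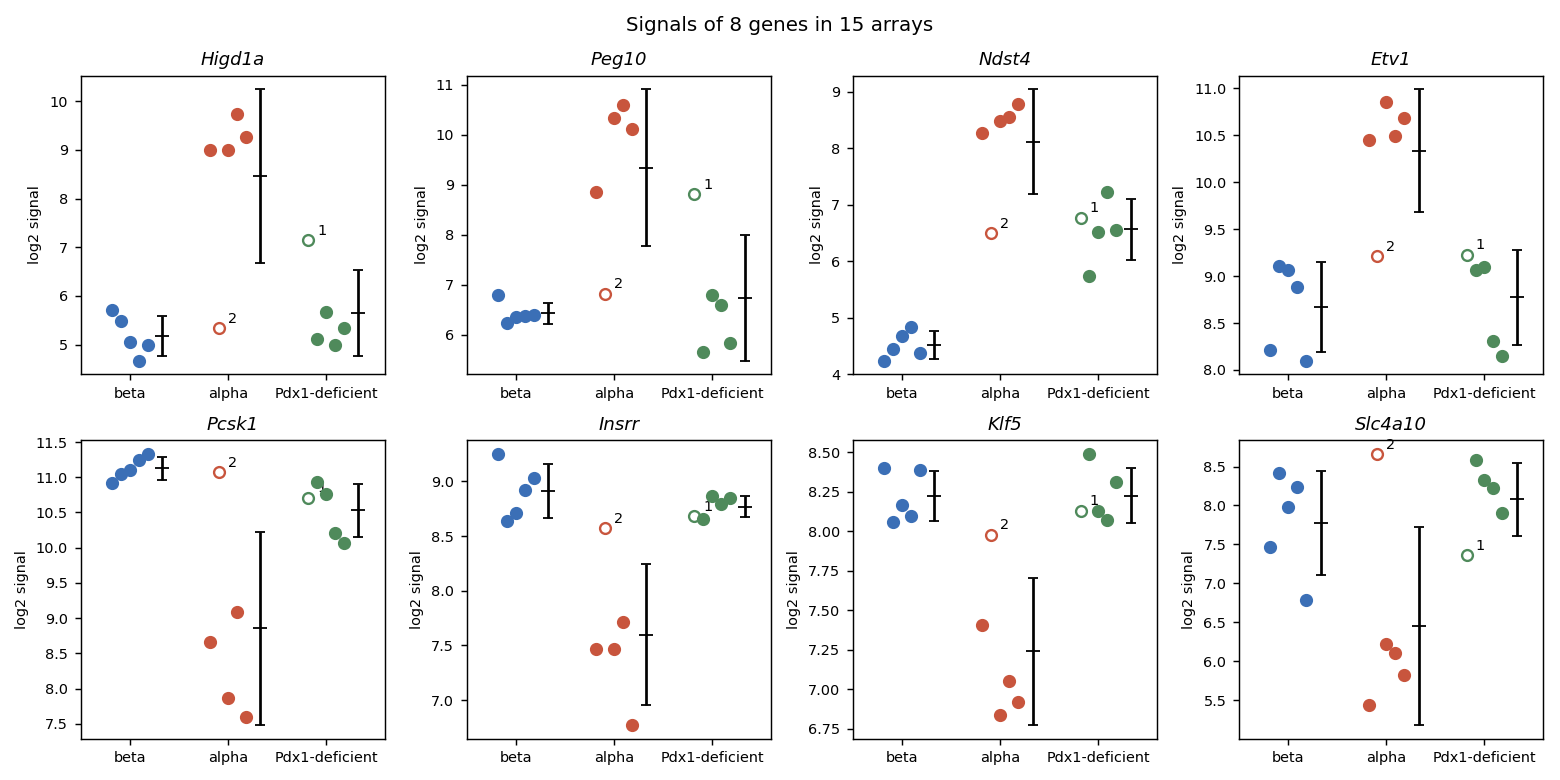
Log2 signals (vertical axes, each with its own scale) of 4 genes lower and 4 genes higher in Pdx1-deficient than in alpha arrays, in the beta, alpha and Pdx1-deficient groups; points are arrays, open points are alpha replicate 2 and Pdx1-deficient replicate 1, and black bars are the group mean ± SD (n = 5). Alpha replicate 2 lies with the Pdx1-deficient arrays for Higd1a (5.33), Pcsk1 (11.07) and Slc4a10 (8.66), and for Ndst4 the Pdx1-deficient arrays (5.73 to 7.23) lie above all beta arrays and below 4 alpha arrays.

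The beta-cell identity list holds 23 names, of which 19 genes were analysed here (Ero1lb, also listed, is an older name of Ero1b). Over 5 against 5 arrays 14 were higher and 5 lower in sign, the median was 0.13 against 0.02 over all genes, 4 higher members had an unadjusted p under 0.05 (3.1% of all genes), 0 passed, and Gipr alone did not overlap (0.356%). Over 4 against 4 arrays Pcsk1 and Hadh rose (2 of 19, against 0.446%), 4 of 19 did not overlap upwards (2.45%), and the median was 0.07. Members of this list lay nearer the beta than the alpha level (Pcsk1, Hadh) or, without Pdx1-deficient replicate 1, near the alpha level (Slc2a2, Ucn3, Nkx6-1).

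Pcsk1, the convertase that alpha cells replace by the one encoded by Pcsk2, read 8.66, 11.07, 7.87, 9.08 and 7.59 in alpha arrays and 10.71, 10.93, 10.76, 10.21 and 10.06 in Pdx1-deficient arrays. Only alpha replicate 2 overlapped the Pdx1-deficient arrays, and it lay inside the beta range of 10.92 to 11.33. Pcsk1 differed by 1.68 (SE 0.47, limma adjusted p = 0.394) and over 4 against 4 arrays rose 4.56-fold (2.19, SE 0.29, limma adjusted p = 0.00208). Hadh, a mitochondrial enzyme of fatty acid oxidation that restrains insulin release, read 9.16, 10.06, 6.65, 8.40 and 7.73 in alpha arrays and 10.17, 10.28, 9.85, 9.77 and 9.48 in Pdx1-deficient arrays. It overlapped through alpha replicate 2 alone, with beta arrays at 9.78 to 10.34. Its rise of 3.62-fold over 4 against 4 arrays (limma adjusted p = 0.0473) held in 1 of 13 fits that left out a further array, with a limma adjusted p of up to 0.191. Gipr, the receptor of the incretin hormone GIP, read 6.79 to 7.24 in alpha and 7.26 to 7.94 in Pdx1-deficient arrays (0.53, limma adjusted p = 0.319; 0.53 and 0.17 over 4 against 4).

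Slc2a2, the glucose transporter GLUT2, read 7.90, 7.85, 7.49, 8.76 and 6.93 in alpha arrays and 10.46, 7.94, 7.52, 6.71 and 7.45 in Pdx1-deficient arrays, with beta arrays at 9.28 to 10.19. Only Pdx1-deficient replicate 1 lay with the beta arrays. The difference was 0.23 (95% interval -0.91 to 1.36) and turned to -0.37 over 4 against 4 arrays (95% interval -1.12 to 0.38). Ucn3, urocortin 3, read 9.39, 9.12, 8.06, 9.29 and 8.41 in alpha arrays and 10.88, 9.34, 8.65, 7.92 and 7.44 in Pdx1-deficient arrays (-0.01, 95% interval -1.05 to 1.04; -0.45 over 4 against 4, 95% interval -1.26 to 0.36). Its highest array was again Pdx1-deficient replicate 1, close to the beta range of 10.95 to 11.50. Nkx6-1, a repressor of alpha-cell genes in beta cells, read 6.79, 6.64, 6.80, 6.66 and 6.42 in alpha arrays and 7.73, 6.97, 6.66, 6.09 and 6.22 in Pdx1-deficient arrays. The groups overlapped, and its difference was 0.07 (95% interval -0.47 to 0.62), or -0.18 over 4 against 4 arrays (95% interval -0.65 to 0.29).

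Glp1r, the receptor of the incretin GLP-1, read 8.07 to 8.70 in alpha arrays and 10.13, 8.26, 8.13, 6.95 and 7.51 in Pdx1-deficient arrays (-0.23, 95% interval -1.10 to 0.65; -0.76 over 4 against 4, limma adjusted p = 0.269). G6pc2, a glucose-6-phosphatase of islets, read 9.75 to 10.80 and 9.80 to 12.17 and differed by 0.46 (95% interval -0.27 to 1.20). Ero1b, an oxidase that helps to form disulfide bonds in proinsulin, read 10.40 to 10.88 and 9.32 to 11.80 and differed by -0.24 (95% interval -0.97 to 0.49). In each of these genes the highest Pdx1-deficient value was that of replicate 1, whose Pdx1 was at the beta level. Mafa, a late regulator of insulin genes, read 6.15 to 6.59 in alpha, 6.36 to 6.55 in Pdx1-deficient and 6.33 to 6.79 in beta arrays, so it did not separate the control groups on this array.

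**Figure D4:**
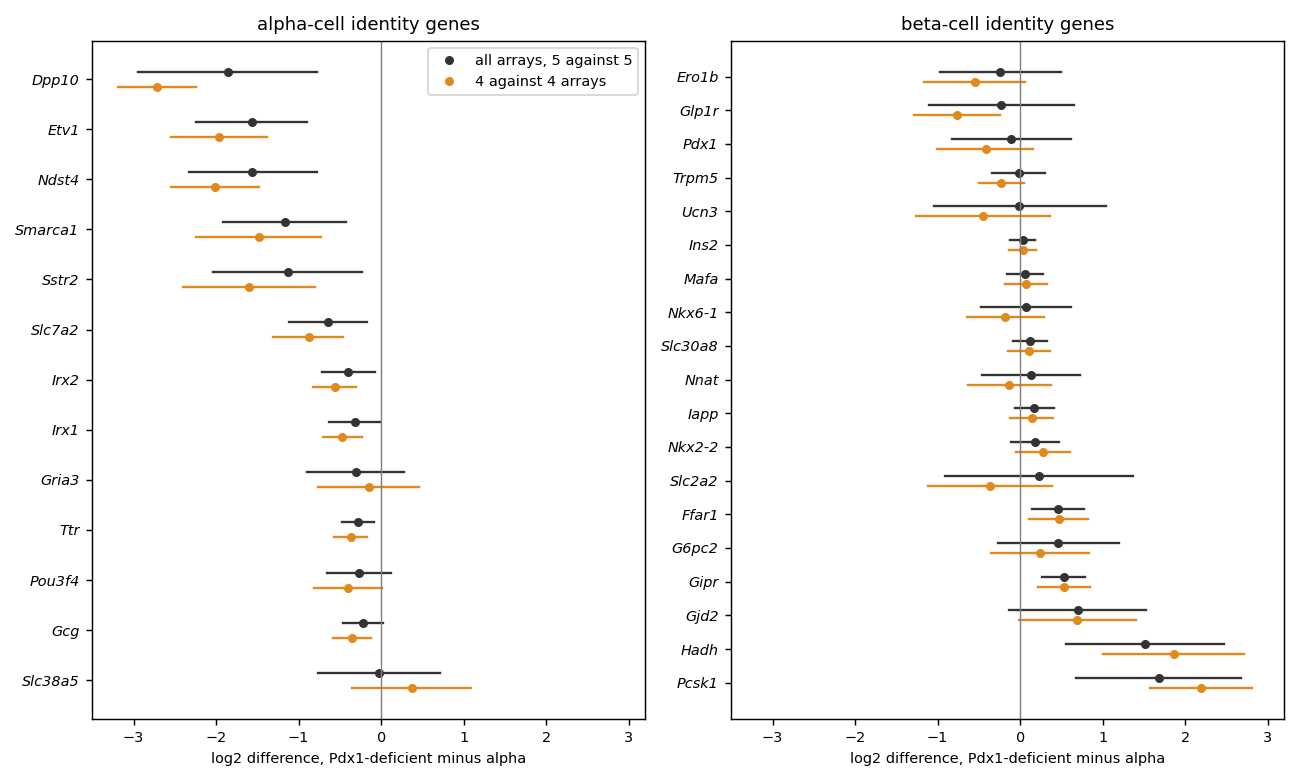
Log2 difference, Pdx1-deficient minus alpha (horizontal axis), with its 95% interval for each measured gene of the alpha-cell list (left) and the beta-cell list (right); dark points use 5 against 5 arrays and orange points 4 against 4, without Pdx1-deficient replicate 1 and alpha replicate 2. Dpp10, Etv1 and Ndst4 lie farthest to the left (-1.86, -1.57 and -1.56 over 5 against 5 arrays), and Pcsk1 and Hadh farthest to the right (1.68 and 1.51).

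Outside the list, the biggest rises over 4 against 4 arrays included Slc4a10, a sodium-bicarbonate transporter. It read 5.44, 8.66, 6.22, 6.11 and 5.82 in alpha arrays and 7.36, 8.58, 8.33, 8.22 and 7.90 in Pdx1-deficient arrays. Alpha replicate 2 was the highest of the 10 arrays, and the beta arrays spanned 6.78 to 8.42. Slc4a10 rose 5.14-fold over 4 against 4 arrays (2.36, SE 0.31, limma adjusted p = 0.00202) and differed by 1.63 over 5 against 5 (limma adjusted p = 0.47). Adh1, an alcohol dehydrogenase that oxidises retinol, rose 5.05-fold, Stk26, a kinase of the cell cortex, 4.87-fold, Dcdc2a, a microtubule-binding protein, 4.58-fold and Frzb, a secreted Wnt inhibitor, 3.85-fold (limma adjusted p = 0.0355, 0.000872, 0.00832 and 0.00917). In all 4 of these genes alpha replicate 2 lay above the other alpha arrays, at 10.92, 8.44, 9.29 and 10.60. Ccl28, a chemokine, rose 4.43-fold, Tmem255a 3.58-fold and Sult1d1, a sulfotransferase, 3.58-fold (limma adjusted p = 0.0464, 0.00897 and 0.016).

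Cd9 and Mlxipl rose to or above the highest control values in some Pdx1-deficient arrays. Cd9, a tetraspanin of the cell surface, read 6.93, 7.97, 6.60, 6.41 and 7.34 in alpha arrays and 6.37, 8.03, 8.62, 9.17 and 9.15 in Pdx1-deficient arrays, with beta arrays at 5.85 to 6.89. Pdx1-deficient replicates 2 to 5 were the 4 highest of all 15 arrays, while replicate 1 lay with the controls. Cd9 rose 3.8-fold over 4 against 4 arrays (1.93, SE 0.30, limma adjusted p = 0.00792) and differed by 1.22 over 5 against 5 (limma adjusted p = 0.688). Mlxipl, the carbohydrate-responsive transcription factor ChREBP, read 7.68, 8.60, 7.95, 7.84 and 7.38 in alpha arrays and 8.41, 8.73, 8.97, 9.30 and 9.33 in Pdx1-deficient arrays. Pdx1-deficient replicates 3 to 5 lay above the beta range of 8.53 to 8.91, replicate 2 inside it and replicate 1 below it. Mlxipl rose 2.59-fold over 4 against 4 arrays (1.37, SE 0.16, limma adjusted p = 0.000682) and differed by 1.06 over 5 against 5 (limma adjusted p = 0.264). Of the 21 measured genes of glucose sensing and metabolism it was the only riser (0.446% of all genes rose) and Pdk4 the only faller (0.441% fell) over 4 against 4 arrays, and the list's median was 0.03 over 5 against 5.

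Over 4 against 4 arrays, Chga and Pam rose among the genes that endocrine cells share. Of 17 measured genes of the shared endocrine program, Chga, the granule protein chromogranin A, rose 1.52-fold and Pam, which amidates peptide hormones, rose 1.51-fold over 4 against 4 arrays (limma adjusted p = 0.00391 and 0.00633), 2 of 17 against 0.446% of all genes. In 7 of 17 the 4 against 4 arrays did not overlap upwards (2.45% of all genes), and the median over 5 against 5 was 0.16. Chga read 12.06, 12.58, 11.98, 12.06 and 11.96 in alpha arrays and 12.33, 12.59, 12.72, 12.65 and 12.52 in Pdx1-deficient arrays, so only alpha replicate 2 overlapped. Over 5 against 5 arrays Chga differed by 0.43 (limma adjusted p = 0.376) and Pam by 0.27 (limma adjusted p = 0.968). Pam read 10.31 to 11.03 in alpha arrays, with the highest value in replicate 2. Pdx1-deficient replicate 1, at 10.01, lay below all of them, so the rise of Pam rests on leaving out these arrays. In the lists of granule exocytosis (14 measured genes, median 0.06) and voltage-gated ion channels (17 genes, median -0.00) no gene passed in either set of arrays. Stx1a, a syntaxin of granule fusion, and Kcnk3, a background potassium channel, came first by p, with differences of 0.37 and -0.48 (limma adjusted p = 0.705 and 0.814). Among 17 receptors and transporters that act on glucagon secretion, Avpr1b, a vasopressin receptor, read 5.66 to 6.48 in alpha and 5.34 to 5.62 in Pdx1-deficient arrays without overlap and fell 1.56-fold over 4 against 4 arrays (limma adjusted p = 0.0464), in 1 of 13 further fits. The Avpr1b means of 5.98 in alpha and 5.46 in Pdx1-deficient arrays lay below 6.17, the limit used to filter dim genes, and may lie near background. Of all genes, 0.281% were lower without overlap over 5 against 5 arrays, and 0.441% passed as lower over 4 against 4.

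Lists of protein folding, protein entry into the endoplasmic reticulum and respiration had medians near that of all genes. The unfolded protein response list (24 measured genes) had a median of 0.02, the translocation and signal peptide list (20 genes) 0.03 and the respiratory chain list (20 genes) -0.04, with no gene past the threshold in either set of arrays. Ddit3, the stress factor CHOP, had the smallest p of the first list and read 8.99 to 10.23 in alpha and 8.27 to 9.29 in Pdx1-deficient arrays (-0.71, limma adjusted p = 0.608). The progenitor and dedifferentiation list (18 genes) had a median of 0.05, and Dcdc2a was its only gene past the threshold over 4 against 4 arrays (0.446% of all genes rose). Sox4, a factor of endocrine progenitors, differed by 0.56 (limma adjusted p = 0.639). The cell cycle (15 genes, median 0.09), interferon (14 genes, -0.04) and chromatin regulator lists (23 genes, 0.05) had no gene past the threshold in either set.

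Markers of other cells were set beside these results. Of 11 measured genes of delta, PP and epsilon cells the median was -0.08, and Rbp4, a retinol carrier on the delta-cell part of the list, was the only one past the threshold, falling 2.63-fold over 4 against 4 arrays (limma adjusted p = 0.00917), where 0.441% of all genes fell. It read 11.57, 10.60, 11.38, 11.59 and 11.27 in alpha arrays and 11.11, 10.29, 10.63, 9.69 and 9.61 in Pdx1-deficient arrays. The acinar list had a median of -1.25 with 19 of 20 genes lower in sign and 0 past the threshold in either set. Alpha replicate 5 held this signal: the elastase Cela1 read 12.26 there and 5.95 to 6.97 in the other alpha arrays. List means for duct (7.08 to 7.39), endothelial (5.22 to 5.52), leukocyte (5.11 to 5.52), stromal (5.51 to 5.69) and erythroid markers (5.57 to 5.79) in Pdx1-deficient arrays compared with alpha arrays at 6.99 to 7.36, 5.20 to 5.53, 5.20 to 5.48, 5.30 to 5.98 and 5.54 to 5.78, and no gene of these lists passed in either set. Over 4 against 4 arrays 4 of 12 duct genes were higher at an unadjusted p under 0.05 (4.54% of all genes) and 3 did not overlap (2.45%), with the keratin Krt7 1.83-fold higher (limma adjusted p = 0.219). The stromal mean was 5.64 to 5.98 in the 4 alpha arrays kept and 5.57 to 5.69 in the 4 Pdx1-deficient arrays kept, and Sparc, a matrix protein gene, was 2.34-fold lower without overlap (limma adjusted p = 0.0556). Their part in the differences was not tested.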

How the data were processed

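RNA from sorted mouse islet cells, with 500 ng per labelling reaction, was measured on 15 single-colour arrays, of which 10 are compared here. The deposited values are log2 signals of transcript clusters, which the authors made with Affymetrix Expression Console, per the submitters' processing notes. Its version, the summarization, the background correction and the log base are not given in the sources used, and the range of 2.11 to 13.45 and array medians of 5.88 to 6.05 set the scale. No further normalization was applied.

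Of 35556 clusters, 21789 had 1 gene symbol in the platform annotation, 1621 several and 12146 none; the last 2 kinds were left out. Gene IDs of 21698 clusters matched RefSeq's gene table (GRCm38.p6), and 0 symbols changed. Each of 19938 genes was represented by its cluster with the highest mean over 15 arrays (999 genes had more than 1).

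Group means were fitted over all 15 arrays with limma 3.58.1 (lmFit, eBayes) in R 4.3.3, adjusted by Benjamini and Hochberg over all genes with a threshold of 0.05, and intervals are 95% intervals of that fit. For arrays, their number limits the precision. The procedure was tested on simulated data. Single genes were also tested by exact permutation. Genes were named by rule: Pdx1 and Gcg; the 12 biggest differences each way among called genes without overlap, in both sets of arrays, with places filled from genes at an unadjusted p under 0.01; all members of the identity lists; and 2 to 4 per other list, by smallest p. List members past the threshold over 4 against 4 arrays only, and the cholesterol list, were added after their values were seen. The comparison, the left-out arrays and the 26 gene lists were chosen with earlier results of these data known, so list counts are descriptions without a test. Promoter windows of 117 of 140 named genes were found in RefSeq.

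The alternatives were other scalings, a filter on dim genes (mean log2 signal above 6.17), fewer arrays in the fit, moderated variance trends, array weights, every cluster tested, a replicate block, an acinar covariate, and each array left out in turn. The replicate numbers of the titles were checked for pairing: the deviations of same-numbered arrays correlated by -0.0545, 0.221, -0.172, -0.106 and 0.0236. Arrays of unlike number were not correlated for comparison, so these values do not settle whether same-numbered arrays are paired.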

Additional observations from a re-analysis of the deposited data

Results flagged for a closer look

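In groups of 5 arrays, single arrays that lay far from the other 4 were sought in the named genes and list means, by the gap to the nearest array as a share of the range. This marked 36 of 298 groups, and 19 of the 36 were alpha replicate 2 and 7 were Pdx1-deficient replicate 1. Chance marks about 1 in 20 groups of genes not picked on their values, but many of these genes were named because they differed with those arrays left out, so the number of marks cannot be read against that rate.

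Alpha replicate 2 read low for genes that the other alpha arrays expressed: Higd1a at 5.33 (others 8.99 to 9.75), Mctp2 at 4.68 (7.07 to 7.82), Ptprk at 6.20 (9.05 to 9.54), Nudt11 at 6.48 (8.49 to 8.99), Gpx3 at 9.48 (10.96 to 11.08), Dpp10 at 5.82 (8.62 to 9.08), Pdk4 at 7.53 (9.69 to 10.31) and Sgce at 5.96 (8.10 to 8.55). It was also low for Irx1 at 5.61 (6.29 to 6.45), Etv1 at 9.21 (10.45 to 10.86), Ndst4 at 6.50 (8.27 to 8.79), Atf3 at 8.15 (10.36 to 11.17), B2m, the light chain of class I antigen presentation, at 8.31 (8.92 to 9.04), and Trpm5, a cation channel, at 5.19 (5.61 to 5.75). Alpha replicate 2 read high for Slc4a10 at 8.66 (5.44 to 6.22), Ccl28 at 8.18 (5.97 to 6.04), Chga at 12.58 (11.96 to 12.06) and Pam at 11.03 (10.31 to 10.46). Its mean over the respiratory chain list, 9.51, was above the other alpha arrays at 9.14 to 9.25.

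Pdx1-deficient replicate 1 read 7.36 for Dpp10 (others 6.06 to 6.14), 6.79 for Rcn3 (5.21 to 5.62), 8.83 for Nnat, an imprinted beta-cell gene (7.29 to 7.64), and 6.70 for the proliferation marker Mki67 (5.39 to 5.71). It read 8.17 for Dcdc2a (8.83 to 9.01) and 10.01 for Pam (10.87 to 11.11), and its acinar mean was 6.35 (5.57 to 5.71).

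Alpha replicate 5 read 12.26 for Cela1 (others 5.95 to 6.97), 11.54 for Cela3b (5.77 to 6.69), 11.11 for the acinar mean (5.60 to 6.71) and 7.11 for Nnat (7.64 to 7.76). Alpha replicate 4 read 7.88 for Rnf32 (7.19 to 7.38) and 6.66 for the erythroid gene Alas2 (6.10 to 6.19). In the Pdx1-deficient group, replicate 2 had an immediate early mean of 8.84 (8.60 to 8.66), replicate 3 read 5.33 for Cela3b (5.89 to 6.10), replicate 4 read 9.26 for Entpd3 (8.96 to 9.02) and replicate 5 read 6.99 for Fam3c (8.10 to 8.56).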

How the results depend on the processing

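The count of genes with a limma adjusted p under 0.05 over 5 against 5 arrays was 0, and it was 1 (Cdo1) under trend and robust moderation, with dim genes removed or with array weights. It was 177 without Pdx1-deficient 1 and alpha 2, and with single arrays left out it ran from 0 to 145, the highest without alpha replicate 2. It was 0 with array medians subtracted, quantile normalization, the acinar covariate, every cluster and only 10 arrays in the fit. Over 4 against 4 arrays, where alternatives were chosen after seeing the data, the count of 177 fell to 90 with only the 8 arrays compared in the fit, to 107 with the acinar covariate and to 106 without alpha replicate 5, and leave-outs ran from 106 to 196. The replicate block gave 0 genes over 5 against 5 and 124 over 4 against 4 arrays, and it changed no other call over 5 against 5. Whether same-numbered arrays are paired was not settled. Among 123 named genes, 2915 of 3053 values under alternatives kept their direction and side of the threshold, 106 newly passed and 32 changed sign, all in genes whose differences did not pass. Since no gene passed over 5 against 5 arrays, a kept side means only that a gene was still not called. The alternatives to the fit over 4 against 4 arrays are not in this count. Pdx1 turned to 0.19 with array weights and ran from -0.45 to 0.19 over leave-outs. Array weights also turned Ucn3 to 0.52, Glp1r to 0.11 and Ero1b to 0.16. Leaving out both arrays turned Slc38a5 to 0.37, Nkx6-1 to -0.18, Slc2a2 to -0.37 and Nnat to -0.13. Slc38a5 read 0.02 after quantile normalization and 0.01 with the acinar covariate. Over leave-outs Slc38a5 ran from -0.32 to 0.18, Nkx6-1 from -0.18 to 0.23, Slc2a2 from -0.38 to 0.56, Ucn3 from -0.51 to 0.35, Glp1r from -0.71 to 0.08, Ero1b from -0.58 to 0.04, Trpm5 from -0.14 to 0.08, Nnat from -0.15 to 0.24, Ins2 from -0.01 to 0.06, Mafa from -0.00 to 0.11 and Alas2 from -0.11 to 0.03. The cause of these changes was not tested, beyond the arrays named. Genes with signals below 6.17 may lie near background, where differences are compressed. Galnt13, Mctp2, Oat, Avpr1b, Irx1, Sstr2, Pou3f4 and Nrcam were among the genes that the filter on dim genes removed.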

Other observations

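Genes of cholesterol synthesis, a list chosen after its values were seen, lay higher in Pdx1-deficient than in alpha arrays in sign in 16 of 18 measured members, with a median difference of 0.29 against 0.02 over all genes. Over 4 against 4 arrays 4 of 18 rose with a limma adjusted p under 0.05 (0.446% of all genes did): Nsdhl 2.76-fold, Hmgcs1 2.64-fold, Msmo1 2.48-fold and Sqle 1.9-fold (limma adjusted p = 0.0344, 0.0237, 0.0436 and 0.036). When a further array was left out, Nsdhl passed in 6, Hmgcs1 in 7, Msmo1 in 3 and Sqle in 6 of 13 fits. Msmo1, a sterol demethylation enzyme, read 6.09, 8.19, 7.48, 7.80 and 7.08 in alpha arrays and 8.76, 8.34, 8.54, 8.47 and 8.33 in Pdx1-deficient arrays. Its groups did not overlap, and all Pdx1-deficient values lay below the beta range of 8.91 to 9.36. Nsdhl, a sterol dehydrogenase, read 6.70, 7.56, 5.51, 6.41 and 5.41 in alpha arrays and 7.34, 7.66, 7.65, 7.12 and 7.45 in Pdx1-deficient arrays. Alpha replicate 2 alone overlapped the Pdx1-deficient arrays. Sqle, squalene epoxidase, read 7.64 to 8.83 in alpha, 8.48 to 9.32 in Pdx1-deficient and 9.26 to 9.64 in beta arrays. Mvk, Mvd and Idi1, enzymes of the mevalonate branch, differed by -0.00, 0.00 and -0.04, so the members of the list did not move as a whole.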
